A study of Homo sapiens with 13 samples.

Results

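The genes described here encode the kinases that phosphorylate RNA polymerase II, their cyclins, and the polymerase subunit they act on. They were chosen by symbol: CDK12, CDK13, CCNK, CDK9, CCNT1, CCNT2, CDK7, CCNH, MNAT1 and POLR2A, which are 10 of the 26454 genes in the deposited table. All 10 had a row of their own, and all 10 were among the 17519 genes that passed the filter on low values.

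POLR2A encodes the largest subunit of RNA polymerase II, whose tail of repeated heptads, the C-terminal domain, is phosphorylated in steps as transcription proceeds. CDK7 with cyclin H (CCNH) and the assembly factor MAT1 (MNAT1) forms the CDK-activating kinase of the initiation factor TFIIH and acts at promoters. CDK9 with cyclin T1 or T2 (CCNT1, CCNT2) forms P-TEFb, which releases paused polymerase, and CDK12 and its close relative CDK13, each with cyclin K (CCNK), act on elongating polymerase. CDK12 is known for keeping up the expression of long genes and of DNA repair genes.

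The cells were U2OS, a human osteosarcoma line. Total RNA was sequenced after removal of ribosomal RNA, beside RNA recovered by immunoprecipitation (IP) of eIF4G, the scaffold of the cap-binding complex. Cells received control siRNA with mock treatment, CDK12 siRNA with mock treatment, or rapamycin, which inhibits the kinase complex mTORC1, together with control siRNA. Transfection lasted 48 h in every group, and rapamycin was given at 50 ng/ml for 24 h. Of 13 libraries, 6 are total RNA (2 per condition), 3 are control IPs, 2 are IPs after CDK12 siRNA and 2 are IPs with rapamycin. Levels are the deposited FPKM, that is, tags (counted reads) per kilobase of gene body, introns included, scaled to library depth, so a level mixes processed and unprocessed RNA. No IP with a control antibody was used here, so RNA held by eIF4G cannot be told from background. In these bulk samples, fewer expressing cells and less RNA per cell cannot be told apart.

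Depth, recovered from the low FPKM values, ran from 12870000 to 30620000 tags per library, and the 10 genes held between 154 and 7126 tags each in every library. Changes are log2 differences ± SE, fitted by limma to scaled log2(FPKM + 0.1), where low genes show less than their true change, with p-values adjusted over all tested genes and a threshold of 0.05. It is not stated that replicates come from separate cultures, so the tests measure the spread between these libraries, which could be technical. Rapamycin libraries carry another date code in their titles than all others, so that date and rapamycin cannot be told apart. Between replicates, the IP libraries of CDK12 siRNA were the farthest apart, with an SD of the log2 difference of 0.388 over 12814 genes, against 0.112 to 0.257 for the other pairs. Of 8 mesenchymal or bone markers, 7 had a mean of at least 1 FPKM (COL1A2 stayed at or under 0.03), and their sum ran from 74.4 to 397 FPKM over the libraries. The 5 epithelial markers summed to at most 1.74 FPKM and the 5 haematopoietic markers to at most 0.169.

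Because rapamycin acts on mRNAs that begin with an oligopyrimidine tract, the annotated starts of the genes with the clearest rapamycin response in the IP are shown (RefSeq, GRCh38.p14). Each window runs from 10 bases before the start to 20 bases from it, 5′ to 3′ on the gene's strand, with the first 5 transcribed bases in capitals.
CDK7 (chr5:69234876-69234905, plus strand): ggtggacggaAGTGGgtgttggaggcttta
CDK7, second start (chr5:69234785-69234814, plus strand): tgacgggtggGGAACgccaaccgcctgggc
CCNH (chr5:87412911-87412940, minus strand): tcgtgacgacAGCGCgccagcgccggctag
MNAT1 (chr14:60734751-60734780, plus strand): cgtctctgccAAGCGcctgttggtaggaac
POLR2A (chr17:7484356-7484385, plus strand): cgagttcgctGCTCAgaagcgccgagagcg
CCNT1 (chr12:48716688-48716717, minus strand): aagtgcctgcAGCCTtcgccgctgccttct
CDK12 (chr17:39461476-39461505, plus strand): ccccttccccAAGTGccgtttcggtttaat
None of these begins with C followed by 4 bases that are each C or T, read on the gene's strand. The same held for all 13 annotated starts of the 10 genes, among them a second start of CCNT1 that is not shown. This run is rare, at 4.07% of 35116 annotated starts, so its absence from 13 starts does not set these genes apart. Of 85 starts of ribosomal protein genes, 48 had it. The letters describe annotated starts only, not the starts used in these cells.

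CDK12 RNA was lower after its siRNA and RNA of most of its relatives was higher in total RNA. CDK12 (hg19 chromosome 17, 37617764 to 37690818) stood at 1.64 and 1.72 FPKM in the control libraries, and at 0.706 and 0.707 FPKM after CDK12 siRNA. The deposited groups did not overlap, as for 48% of all genes that lay below both controls in this comparison and 30.6% that lay above them. The deposited mean was 42.1% of control, or 49.4% after scaling of the libraries. The change was -0.94 ± 0.12 (adjusted p = 0.000194). By deposited group means CDK12 was highest in control total RNA, followed by total RNA with rapamycin and the rapamycin IP. Total RNA after CDK12 siRNA, the control IP and the CDK12 siRNA IP came next, in that order. The last pair, 0.521 ± 0.021 FPKM (SD, n = 3) and 0.416 ± 0.110 FPKM (SD, n = 2), differed by less than the SD of the CDK12 siRNA IP. After scaling, the rapamycin IP (0.842) lay just under total RNA after CDK12 siRNA (0.850).

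CDK13 (hg19 chromosome 7, 39989959 to 40136733), the paralog of CDK12, stood at 1.65 and 1.63 FPKM in control total RNA and at 2.28 FPKM in both CDK12 siRNA libraries. Both treated libraries lay above both controls, as for 30.6% of all genes, and CDK13 rose by 0.67 ± 0.11 (adjusted p = 0.000881). CCNK (hg19 chromosome 14, 99947739 to 99977852), the cyclin of both kinases, stood at 0.540 and 0.596 FPKM in control and at 0.725 and 0.778 FPKM after CDK12 siRNA. Its rise of 0.56 ± 0.15 (adjusted p = 0.0111) was lost without total control replicate 1 (0.48), without total CDK12 siRNA replicate 2 (0.50) and without scaling (0.35). CCNK alone among the 10 overlaps another gene of the table, by 249 bp with CCDC85C on the other strand, 0.827% of its length.

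The kinases of P-TEFb and TFIIH moved in opposite directions. CDK9 (hg19 chromosome 9, 130548305 to 130553052) stood at 4.55 and 3.94 FPKM in control total RNA and at 2.74 and 2.03 FPKM after CDK12 siRNA, and fell by 0.59 (-0.59 ± 0.16, adjusted p = 0.011). That call was lost without total control replicate 1 (-0.51) and without total CDK12 siRNA replicate 2 (-0.39). CDK7 (hg19 chromosome 5, 68530622 to 68573257) stood at 0.754 and 0.911 FPKM in control and at 1.32 and 1.47 FPKM after CDK12 siRNA, 167.7% of control as deposited and 196.5% after scaling. It rose by 0.90 ± 0.15 (adjusted p = 0.000712), and its deposited values lay above both controls, as did those of 30.6% of all genes.

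Of the cyclins of P-TEFb and TFIIH, CCNT2 and CCNH rose in total RNA. CCNT1 (hg19 chromosome 12, 49082241 to 49110781) did not pass, with 2.96 and 2.72 FPKM in control, 2.70 and 2.75 FPKM after CDK12 siRNA and a change of 0.17 (95% interval -0.06 to 0.40) that turned to -0.06 without scaling. CCNT2 (hg19 chromosome 2, 135676392 to 135716915) rose by 0.44 ± 0.14 (adjusted p = 0.03), from 3.26 and 3.34 FPKM to 3.76 and 3.92 FPKM. CCNH (hg19 chromosome 5, 86690079 to 86708721) rose by 0.36 ± 0.09 (adjusted p = 0.00863), from 2.37 and 2.18 FPKM to 2.55 and 2.47 FPKM. The calls of these cyclins depended on the libraries used: that of CCNT2 was lost without any 1 of the 4 libraries compared (0.40 to 0.48) and without scaling (0.21), and that of CCNH without total control replicate 2 (0.32), total CDK12 siRNA replicate 1 (0.34) and scaling (0.14).

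MNAT1 (hg19 chromosome 14, 61201459 to 61435398) stood at 0.745 and 0.746 FPKM in control and at 0.929 and 0.911 FPKM after CDK12 siRNA, a rise of 0.48 ± 0.15 (adjusted p = 0.0246). Without any 1 of these 4 libraries its call was lost (0.46 to 0.50), as without scaling (0.27). POLR2A (hg19 chromosome 17, 7387698 to 7417935) rose by 0.66 ± 0.13 (adjusted p = 0.00276), from 2.71 and 2.47 FPKM to 3.64 and 3.44 FPKM. Its treated libraries both lay above the controls, as for 30.6% of all genes, and without scaling it still passed at 0.44.

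**Figure D1:**
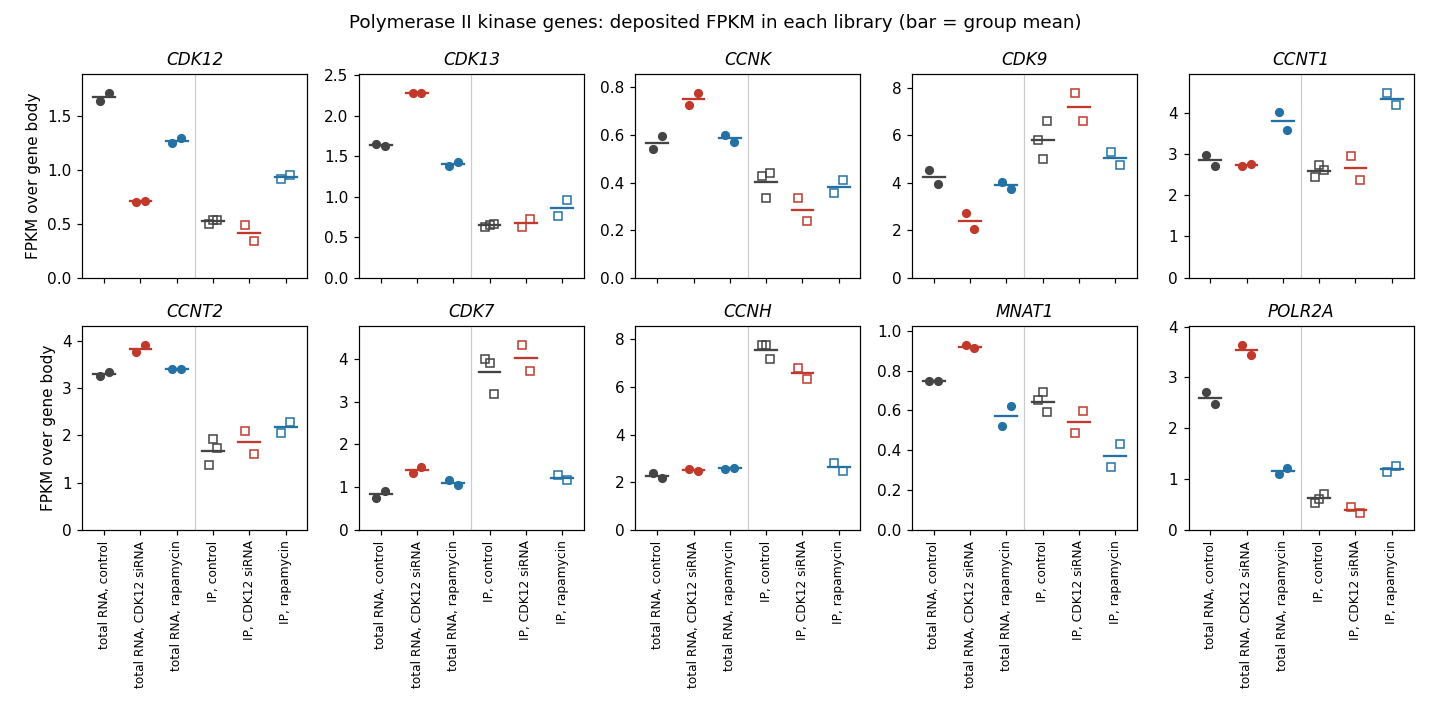
Deposited FPKM of each gene (vertical axes, from 0) in every library, with filled circles for total RNA, open squares for the eIF4G IP and bars for group means, by control (grey), CDK12 siRNA (red) and rapamycin (blue). CDK12 is at 0.706 and 0.707 in total RNA after its siRNA, under both controls, while CDK7 and CCNH stand high in the control IP and low in the rapamycin IP.

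In all, 9 of the 10 genes passed in total RNA after CDK12 siRNA, 7 higher and 2 lower, where 47.5% of all tested genes passed, 26.1% higher and 21.4% lower. Higher genes made up 55% of all calls, and 34.2% without scaling. Their median change was 0.46 and that of all tested genes 0.05. Across all tested genes, change and gene length had a Spearman rho of 0.16, and these genes run from 4747 to 233939 bp, and the part of length in their changes was not tested. Other genes of polymerase II control were counted by lists. In the super elongation complex, a partner of P-TEFb, 6 of 8 rose (median 0.52), MLLT3 by 1.08 ± 0.11 (adjusted p = 2.85e-05). Among the other polymerase II subunits 2 of 11 rose and 4 fell (median -0.28), and POLR2B, the second largest subunit, rose by 0.52 ± 0.10 (adjusted p = 0.002805). HEXIM1, an inhibitor of P-TEFb, rose by 0.77 ± 0.10 (adjusted p = 0.000167) and was 1 of 5 P-TEFb regulators to pass with limma (median 0.08), where 3 had an unadjusted p under 0.05 and 2 passed with voom. Of the Mediator kinase module 2 of 6 rose (median 0.24), CDK8 by 0.45 ± 0.13 (adjusted p = 0.0152), and of the other TFIIH subunits 1 of 7 fell (median -0.06), GTF2H3 (-0.42 ± 0.13, adjusted p = 0.0227). Phosphatases of the C-terminal domain split into 1 up and 2 down of 8 (median -0.10), with CTDP1 up by 0.53 ± 0.12 (adjusted p = 0.00538). Pausing and elongation factors split into 2 up and 1 down of 12 (median 0.10). Their fall was that of NELFE, a subunit of the pausing factor NELF (-1.60 ± 0.11, adjusted p = 2.84e-06). Its row lists 6 copies and overlaps SKIV2L, by at most 4.04% of its span, so its value is uncertain. Of 6 other kinases and cyclins linked to transcription 0 passed with limma, 0 had an unadjusted p under 0.05, and 0 passed with voom (median -0.01).

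The control IP was set against control total RNA to see which of these mRNAs were recovered with eIF4G. CDK7 and CCNH stood well above total RNA there, and POLR2A, CDK12, CDK13 and CCNT2 below it. CDK7 measured 3.99, 3.91 and 3.18 FPKM in the IP against 0.754 and 0.911 FPKM in total RNA, and thus differed by 2.10 ± 0.13 (adjusted p = 3.203e-07). CCNH measured 7.78, 7.75 and 7.17 FPKM against 2.37 and 2.18 FPKM, a difference of 1.76 ± 0.08 (adjusted p = 8.44e-08) that was 0.78 with quantile normalization. In both genes every control IP library lay above every control total RNA library. How many of all tested genes separated in this way was not counted, so whether this separation sets these genes apart is not known. By the limma test, 34.3% of all tested genes passed as higher in the IP. CDK9 was also higher, by 0.51 ± 0.14 (adjusted p = 0.00778), but the difference was lost without total control replicate 2 (0.43) and turned to -0.67 with quantile normalization.

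POLR2A was the lowest of the 10 relative to total RNA, with 0.529, 0.614 and 0.714 FPKM in the IP against 2.71 and 2.47 FPKM, a difference of -1.85 ± 0.12 (adjusted p = 4.045e-07). CDK12 differed by -1.46 ± 0.11 (adjusted p = 1.08e-06), CDK13 by -1.16 ± 0.10 (adjusted p = 2.83e-06) and CCNT2 by -0.88 ± 0.13 (adjusted p = 0.000136), or -1.57 with quantile normalization. CCNK differed by -0.36 ± 0.13 (adjusted p = 0.0304), a call lost without total control replicate 2 (-0.28) or IP control replicate 2 (-0.26), with the compared groups alone (-0.36) and with the replicate number as a block (-0.35), and turned to 0.17 by quantile normalization. CCNT1 (-0.06, 95% interval -0.26 to 0.15) and MNAT1 (-0.12, 95% interval -0.43 to 0.18) did not pass, though CCNT1 passed at -0.81 with quantile normalization. So 8 of the 10 passed, 3 higher and 5 lower, where 78.3% of all tested genes passed, 34.3% higher and 44% lower. Of all calls 43.8% were higher, and 63.8% among genes of at least 1 FPKM. Across all tested genes the difference and gene length had a rho of -0.39. The 10 genes run from 4747 to 233939 bp, and the part of length in their differences was not tested. Among the lists, 11 of the 11 other polymerase II subunits were higher in the IP (median 2.08 against -0.12 for all tested genes), the reverse of POLR2A. In the super elongation complex 7 of 8 were lower and 1 was higher (median -1.15), and in the Mediator kinase module 5 of 6 were lower and 1 was higher (median -1.27).

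In the IP after CDK12 siRNA the members that passed were all lower. POLR2A measured 0.450 and 0.337 FPKM against 0.529 to 0.714 FPKM in the control IP, and fell by 0.71 on the log2 scale (SE 0.12, adjusted p = 0.00351). Its deposited values lay below all controls, as did those of 15.1% of all genes. CCNH measured 6.81 and 6.33 FPKM against 7.17 to 7.78 FPKM, a change of -0.40 ± 0.08 (adjusted p = 0.00825), or -0.26 with quantile normalization. CCNK measured 0.334 and 0.238 FPKM against 0.336 to 0.441 FPKM (-0.54 ± 0.13, adjusted p = 0.0189), and CDK12 0.493 and 0.338 FPKM against 0.497 to 0.535 FPKM (-0.45 ± 0.11, adjusted p = 0.019). These calls rest on a shared estimate of spread: with the compared groups alone all 4 were lost, at -0.71 for POLR2A, -0.40 for CCNH, -0.54 for CCNK and -0.45 for CDK12. Leaving out IP CDK12 siRNA replicate 3 ended the CDK12 call too (-0.25), and that of CCNK without that library (-0.38) or IP control replicate 1 (-0.48) or 3 (-0.49). Without scaling the calls of CDK12 (-0.29), CCNK (-0.38) and CCNH (-0.20) were lost, and with library weights those of CDK12 (-0.45), CCNK (-0.52) and CCNH (-0.39).

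The other 6 did not pass in the IP after CDK12 siRNA. CDK13 changed by -0.13 (95% interval -0.36 to 0.10), CDK7 by -0.07 (-0.37 to 0.22), CDK9 by 0.11 (-0.21 to 0.43), CCNT1 by -0.16 (-0.37 to 0.04), CCNT2 by -0.05 (-0.35 to 0.24) and MNAT1 by -0.39 (-0.70 to -0.08, adjusted p = 0.0712). CCNT1 passed, at -0.30, without IP CDK12 siRNA replicate 2. MNAT1 passed without IP rapamycin replicate 1 or 2 (both -0.39) and with voom (-0.45). So 4 of 10 passed, where 22.4% of all tested genes passed, 13.6% lower and 8.84% higher. Higher genes made up 39.5% of all calls, and 71.9% without scaling. The median of the 10 was -0.28 and that of all tested genes -0.03. Among polymerase II subunits 3 of 11 fell (median -0.19), POLR2D by 0.53 (-0.53 ± 0.07, adjusted p = 0.00106), and among pausing and elongation factors 4 of 12 fell and 1 rose (median -0.29), LEO1 of the PAF complex at -0.998 ± 0.109 (adjusted p = 0.000401). CTD phosphatases split into 2 up and 1 down of 8 (median -0.03), CTDSP1 at 0.90 ± 0.18 (adjusted p = 0.00642), and 2 of 6 other kinases and cyclins fell (median -0.26), CCNL1 at -0.45 ± 0.11 (adjusted p = 0.0178). In the Mediator kinase module 1 of 6 fell (median -0.13), MED13L at -0.39 ± 0.11 (adjusted p = 0.0363). In the super elongation complex 1 of 8 rose (median -0.00), ELL (0.44 ± 0.09, adjusted p = 0.00769). Of 7 other TFIIH subunits 0 passed with limma, 2 had an unadjusted p under 0.05 and 0 passed with voom (median -0.04).

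Whether the IP followed total RNA was tested by the interaction of fraction and siRNA, the change in the IP minus the change in total RNA. For POLR2A it was -1.37 ± 0.18 (adjusted p = 0.000435): its RNA rose in total RNA and fell in the IP, and the scaled IP level relative to total RNA went from 0.251 to 0.0866. CCNK (-1.09 ± 0.20, adjusted p = 0.00229) showed the same pattern. For CDK7 the interaction was -0.98 ± 0.20 (adjusted p = 0.00386), as total RNA rose and the IP change did not pass, and the ratio of IP to total RNA went from 4.67 to 2.25 scaled and from 4.44 to 2.88 unscaled. Without scaling the CDK7 interaction was -0.56 and still passed. MNAT1 (-0.87 ± 0.20, adjusted p = 0.00815), CDK13 (-0.81 ± 0.15, adjusted p = 0.00278) and CCNH (-0.75 ± 0.12, adjusted p = 0.0012) were lower too, but without scaling their calls were lost (-0.49, -0.41 and -0.34). CDK9 went the other way at 0.71 ± 0.21 (adjusted p = 0.0245), larger without scaling (1.12), a call lost without total control replicate 1 (0.63), total CDK12 siRNA replicate 2 (0.51) or IP CDK12 siRNA replicate 2 (0.61), with the compared groups alone (0.71) and with library weights (0.72). CDK12 itself was at 0.49 ± 0.17 (adjusted p = 0.0409), which was lost under 12 of 23 alternatives, among them each of the 4 total RNA libraries compared (0.44 to 0.54), each of the 3 control IP libraries (0.47 to 0.50), IP CDK12 siRNA replicate 2 (0.29) and either total rapamycin replicate (0.49). It was larger without scaling (0.85, adjusted p = 0.00405) and with quantile normalization (0.89, adjusted p = 0.00156). CCNT1 (-0.33, 95% interval -0.64 to -0.02, adjusted p = 0.0811) and CCNT2 (-0.49, 95% interval -0.93 to -0.06, adjusted p = 0.0705) did not pass. Without IP CDK12 siRNA replicate 2 both passed, CCNT1 at -0.47 and CCNT2 at -0.65, and CCNT2 also passed without IP control replicate 1 (-0.61). CCNT2 passed too with a pseudocount of 1 (-0.40), and with quantile normalization, voom and the replicate number as a block (each -0.52). In all, 8 of 10 passed, 6 lower and 2 higher, where 40% of all tested genes passed, 23.3% lower and 16.7% higher, and rho with gene length was -0.20 over all tested genes. Higher genes made up 41.7% of all calls, and 74.4% without scaling.

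**Figure D2:**
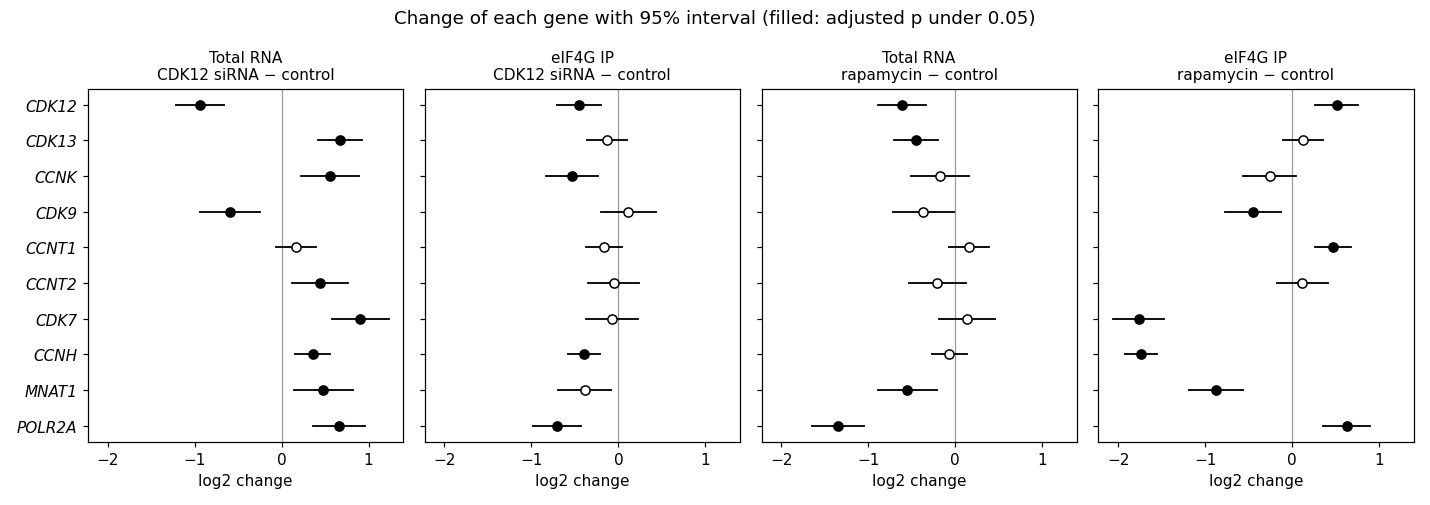
Log2 change of each gene (horizontal axes, log2 of scaled FPKM + 0.1, with 95% intervals from limma) in total RNA and the eIF4G IP after CDK12 siRNA and with rapamycin. POLR2A lies at 0.66 in total RNA and at -0.71 in the IP after CDK12 siRNA, and at -1.34 and 0.62 with rapamycin.

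With rapamycin, POLR2A and CDK12 RNA were lower in total RNA and higher in the IP. In total RNA POLR2A measured 1.09 and 1.21 FPKM against 2.71 and 2.47 FPKM in control, a change of -1.34 ± 0.13 (adjusted p = 0.000154). CDK12 measured 1.25 and 1.29 FPKM against 1.64 and 1.72 FPKM (-0.61 ± 0.12, adjusted p = 0.00433), a smaller change without scaling (-0.37). For both genes the deposited values lay under both controls, as for 27.4% of all genes, while 52.6% of all genes lay above them. CDK13 changed by -0.45 ± 0.11 (adjusted p = 0.0115), from 1.65 and 1.63 FPKM to 1.38 and 1.42 FPKM, and MNAT1 by -0.55 ± 0.15 (adjusted p = 0.018), from 0.745 and 0.746 FPKM to 0.522 and 0.624 FPKM. The call of CDK13 was lost without total control replicate 2 (-0.44) or total rapamycin replicate 1 (-0.42), and that of MNAT1 without total control replicate 1 (-0.57) or 2 (-0.53) or total rapamycin replicate 1 (-0.43). Without scaling both were lost (-0.21 and -0.33).

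The remaining 6 did not pass in total RNA with rapamycin. CDK9 was at -0.37 (95% interval -0.72 to -0.02, adjusted p = 0.0887), CCNT2 at -0.21 (-0.53 to 0.12), CCNK at -0.18 (-0.51 to 0.15), CCNH at -0.07 (-0.27 to 0.13), CDK7 at 0.13 (-0.19 to 0.46) and CCNT1 at 0.16 (-0.07 to 0.38). The deposited values of CCNT1, CCNT2, CDK7 and CCNH lay above both controls, as did those of 52.6% of all genes. The changes of CCNT2 and CCNH were negative after scaling (0.04 and 0.18 without it). CDK9 passed with quantile normalization (-0.66), the compared groups alone (-0.37) and library weights (-0.37), CCNT2 with quantile normalization (-0.45) and the compared groups alone (-0.21), CCNH with quantile normalization (-0.23) and CCNT1 without scaling (0.41). So 4 of 10 passed, all lower, where 37.1% of all tested genes passed, 21.2% lower and 15.9% higher, and rho with gene length was -0.41. Higher genes made up 42.8% of all calls, 71.9% without scaling and 59.2% among genes of at least 1 FPKM. Among the lists, 3 of 8 genes of the super elongation complex fell (median -0.17), ELL2 by 1.44 on the log2 scale (SE 0.15, adjusted p = 0.0001955). In the Mediator kinase module 2 of 6 fell (median -0.16), the kinase gene CDK8 at -0.75 ± 0.13 (adjusted p = 0.00177). CTDSPL fell (-0.84 ± 0.12, adjusted p = 0.000736) among phosphatases of the C-terminal domain with 2 up and 3 down of 8 (median -0.04), and LEO1 fell (-0.68 ± 0.12, adjusted p = 0.00219) among pausing and elongation factors with 2 up and 3 down of 12 (median -0.12). Of the other polymerase II subunits 3 of 11 rose (median 0.25), POLR2G by 1.01 ± 0.22 (adjusted p = 0.00696). With limma 0 of 7 other TFIIH subunits passed (1 at an unadjusted p under 0.05, 1 with voom, median 0.02) and 0 of 6 other kinases and cyclins (3 at an unadjusted p under 0.05, 2 with voom, median 0.22).

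In the rapamycin IP, CDK7, CCNH and MNAT1, which make up the CDK-activating kinase, were all lower than in the control IP. CDK7 measured 1.28 and 1.16 FPKM against 3.99, 3.91 and 3.18 FPKM in the control IP, 33.0% of control as deposited and 27.5% after scaling. It changed by -1.76 ± 0.13 (adjusted p = 2.36e-06). CCNH measured 2.81 and 2.46 FPKM against 7.78, 7.75 and 7.17 FPKM, 34.8% of control as deposited, and changed by -1.74 ± 0.08 (adjusted p = 2.03e-07). For both, the rapamycin IP libraries lay under every control IP library, while the change in total RNA did not pass. Of all tested genes, 26.4% lay below every control IP library in this way and 50.6% lay above. MNAT1 measured 0.313 and 0.432 FPKM against 0.590 to 0.692 FPKM (-0.88 ± 0.14, adjusted p = 0.000329), beside its fall in total RNA.

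POLR2A rose in the same IP libraries by 0.62 ± 0.12 (adjusted p = 0.00135), to 1.13 and 1.26 FPKM, and CDK12 by 0.51 ± 0.11 (adjusted p = 0.00278), to 0.916 and 0.953 FPKM. CCNT1 rose by 0.47 ± 0.09 (adjusted p = 0.00146), from 2.43 to 2.73 FPKM in the control IP to 4.48 and 4.18 FPKM, with a larger value without scaling (0.72). The call of CDK12 was lost with quantile normalization (0.27), those of POLR2A and CCNT1 under no alternative. CDK9 passed at -0.45 ± 0.14 (adjusted p = 0.0192), but not without IP control replicate 3 (-0.36), without IP rapamycin replicate 2 (-0.37), without scaling (-0.19), with library weights (-0.44) or with quantile normalization (-0.01). CDK13 (0.12, 95% interval -0.11 to 0.35), CCNK (-0.26, -0.56 to 0.04) and CCNT2 (0.12, -0.18 to 0.41) did not pass. CDK13 passed without IP rapamycin replicate 1 (0.28) and without scaling (0.35), CCNK without IP control replicate 2 (-0.36) and with quantile normalization (-0.50), and CCNT2 without scaling (0.36). Altogether 7 of 10 passed, 3 higher and 4 lower, where 63.7% of all tested genes passed, 35.2% higher and 28.5% lower. Higher genes made up 55.2% of all calls, and 66.6% without scaling.

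Other genes of the machinery were mixed in the rapamycin IP. Among polymerase II subunits 6 of 11 fell and 1 rose (median -0.49), the small subunit gene POLR2K at -2.69 ± 0.15 (adjusted p = 4.55e-07), while POLR2A itself rose. Of the other TFIIH subunits 3 of 7 fell and 1 rose (median -0.41), GTF2H5 at -1.52 ± 0.16 (adjusted p = 1.82e-05), and pausing and elongation factors split into 3 up and 5 down of 12 (median -0.16), PAF1 at -2.30 ± 0.20 (adjusted p = 6.54e-06). In the super elongation complex 4 of 8 rose and 2 fell (median 0.25), AFF4 at 1.26 ± 0.10 (adjusted p = 2.47e-06), and in the Mediator kinase module 3 of 6 rose and 1 fell (median 0.38), MED13 at 1.62 ± 0.07 (adjusted p = 1.75e-07). CTD phosphatases had 3 up and 1 down of 8 (median 0.18), CTDSP2 at 1.64 ± 0.11 (adjusted p = 1.13e-06), and P-TEFb regulators 2 up and 1 down of 5 (median 0.01), LARP7 at -1.05 ± 0.22 (adjusted p = 0.00237). Other kinases and cyclins had 1 up and 1 down of 6 (median -0.06). The fall was that of CDK11A (-1.34 ± 0.28, adjusted p = 0.0021), which shares 99.3% of its span in the table with its near copy CDK11B, so reads of this pair cannot be told apart.

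The interaction of fraction and rapamycin set the change in the IP beside that in total RNA. It was 1.97 ± 0.18 for POLR2A (adjusted p = 3.395e-05), 1.12 ± 0.17 for CDK12 (adjusted p = 0.000395) and 0.58 ± 0.15 for CDK13 (adjusted p = 0.00939). It was -1.90 ± 0.20 for CDK7 (adjusted p = 5.76e-05) and -1.67 ± 0.12 for CCNH (adjusted p = 1.33e-05). CCNK (-0.08, 95% interval -0.53 to 0.36), CDK9 (-0.08, -0.55 to 0.40), CCNT1 (0.31, 0.00 to 0.62, adjusted p = 0.0795), CCNT2 (0.32, -0.12 to 0.76) and MNAT1 (-0.33, -0.78 to 0.13) did not pass, and CCNT1 passed without IP CDK12 siRNA replicate 2 or 3 (both 0.31), and with the compared groups alone (0.31). With quantile normalization CCNT1 and CCNT2 passed (both 0.64), and CDK9 passed with its direction turned (0.65). The CCNH interaction was then -0.96. So 5 of 10 passed, 3 higher and 2 lower, where 55.2% of all tested genes passed, 31.2% higher and 24.0% lower, and rho with gene length was 0.30. Of all calls 56.6% were higher, and 40.3% among genes of at least 1 FPKM.

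With rapamycin, the IP level of these genes lay close to total RNA. The mean log2 IP level minus that of total RNA ran from -1.85 for POLR2A to 2.10 for CDK7 in control cells. The range was -3.22 for POLR2A to 1.22 for CDK9 after CDK12 siRNA, and -0.58 for CDK13 to 0.43 for CDK9 with rapamycin. Its median size over the 10 genes was 1.02 without treatment, 1.17 after CDK12 siRNA and 0.385 with rapamycin. Over all 17519 tested genes it was 0.802, 0.903 and 0.344, so the smaller distance with rapamycin was also seen over all tested genes.

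**Figure D3:**
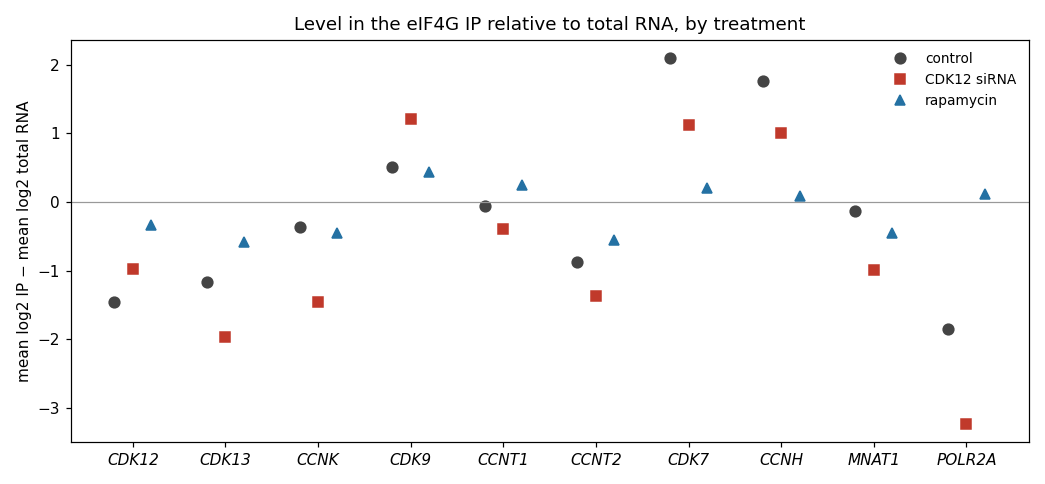
Mean log2 level in the eIF4G IP minus mean log2 level in total RNA (vertical axis, log2 of scaled FPKM + 0.1) for each gene, with grey circles for control cells, red squares for CDK12 siRNA and blue triangles for rapamycin; points are differences of group means. The rapamycin points lie between -0.58 and 0.43, and the CDK12 siRNA point of POLR2A is lowest at -3.22.

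In the authors' deposited table, the change of IP relative to total RNA on their log2 scale was -0.56 for POLR2A after CDK12 siRNA, and POLR2A is the only one of the 10 that is marked TRUE for CDK12 binding there, as are 4.21% of all genes in the authors' deposited table. With rapamycin the authors' deposited table gives -1.28 for CDK7 and -1.37 for CCNH, which alone of the 10 are marked TRUE for mTORC binding, beside 12.4% of all genes. None of the 10 carries a TRUE mark for changed expression after either treatment in the authors' deposited table, which states no thresholds for its marks.

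The levels of CDK12 and CDK13 over the 13 libraries were set beside those of the 14299 tested genes with a mean of at least 50 tags. The genes most like CDK12 by Pearson's r of scaled log2 levels were the DNA methyltransferase DNMT1 (0.986), the kinetochore motor CENPE (0.982) and MTSS1L (0.982). Those most like CDK13 were GLCCI1 (0.997), UNC13B (0.996) and LOC101929709 (0.995). All points share the same libraries and the split into IP and total RNA, so these values are a description only.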

How the data were processed

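FPKM per gene were deposited by the authors. They were made with HOMER's analyzeRepeats program over whole gene bodies of hg19, per the file headers. STAR 2.4.0k and FastQC are named in the submitters' processing notes; the sources used here do not give the strand setting, read filters or annotation release. The deposited group differences are log2 values that the authors computed from FPKM + 1. Of 26454 gene symbols, 28 turned into dates were repaired from the annotation column, and 3 emptied lines were left out.

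Low FPKM values were whole multiples of 1 tag in 100% of those used (tolerance 0.02 tags), which gave the depth of each library. Genes with at least 20 tags in at least 2 libraries, 17519, were tested. FPKM were divided by median-ratio factors (0.826 to 1.18, over 12920 genes) and tested as log2(FPKM + 0.1) with limma 3.58.1 (lmFit, eBayes with a trend) in R 4.3.3, with 6 groups in 1 fit and 9.74 degrees of freedom. Each of 7 contrasts had its own Benjamini-Hochberg adjustment. The pseudocount and filter were set low because several members lie under 1 FPKM. Plots used matplotlib 3.10.9 and numpy 2.4.6 under Python 3.11.15, and other steps pandas 2.3.3. The fit was also run on simulated data with the same spread setting for every library. That setting did not hold the wider spread of the CDK12 siRNA IPs, and no result here rests on it.

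Members and lists were chosen with earlier results of these data known. Named are all 10 members, per pathway list the gene with the smallest p past the threshold in each treatment contrast, and the 3 genes most like CDK12 and CDK13. RN7SK of the P-TEFb list had no match in the table, and the result of that list is not reported here for total RNA with rapamycin and the IP after CDK12 siRNA. Alternatives were other pseudocounts, filters and scalings, the compared groups alone, library weights, voom on tags, the replicate number as a block, and each library left out.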

Additional observations from a re-analysis of the deposited data

Results flagged for a closer look

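These results are listed because the effect of a treatment differed between total RNA and the eIF4G IP by the interaction test. With CDK12 siRNA that test passed for 8 of the 10 genes, beside 40% of all tested genes. With rapamycin it passed for 5 of the 10, beside 55.2% of all tested genes. After CDK12 siRNA the IP change minus the total RNA change was -1.37 for POLR2A, -1.09 for CCNK, -0.98 for CDK7, -0.87 for MNAT1, -0.81 for CDK13, -0.75 for CCNH, 0.71 for CDK9 and 0.49 for CDK12. With rapamycin it was 1.97 for POLR2A, 1.12 for CDK12, 0.58 for CDK13, -1.90 for CDK7 and -1.67 for CCNH. Among the CDK12 siRNA values, the call of CDK12 was lost under 12 of 23 alternatives and that of CDK9 under 5. Those of MNAT1, CDK13 and CCNH were lost without scaling. POLR2A had opposite signs in the 2 fractions under both treatments, up in total RNA and down in the IP after CDK12 siRNA, and the reverse with rapamycin. The IP libraries of CDK12 siRNA differed from each other by an SD of 0.388 on the log2 scale, more than any other replicate pair, and the part of this spread in the CDK12 siRNA values was not tested. Date and rapamycin cannot be told apart. Groups of 2 or 3 libraries are too small for a test of single libraries that lie apart.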

How the results depend on the processing

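Of 70 results for the 10 genes, 45 passed the threshold, and 25 of these kept their direction and passed under every alternative run: 4 in total RNA after CDK12 siRNA (CDK12, CDK13, CDK7, POLR2A), 2 in total RNA with rapamycin (CDK12, POLR2A), 0 in the IP after CDK12 siRNA, 5 in the IP with rapamycin (CCNT1, CDK7, CCNH, MNAT1, POLR2A), 6 between IP and total RNA (CDK12, CDK13, CCNT2, CDK7, CCNH, POLR2A), 3 in the interaction with CDK12 siRNA (CCNK, CDK7, POLR2A) and 5 in that with rapamycin. CCNK and MNAT1 did not enter the fit of genes of at least 1 FPKM, so their results rest on 22 alternatives instead of 23. Without scaling the direction turned for CCNT1 (-0.06) in total RNA after CDK12 siRNA; for CCNK (0.04), CCNT2 (0.04) and CCNH (0.18) in total RNA with rapamycin; for CDK13 (0.04), CCNT1 (0.03), CCNT2 (0.14) and CDK7 (0.12) in the IP after CDK12 siRNA; and for CCNT1 (0.08) in the interaction with CDK12 siRNA. With quantile normalization it turned for CDK13 in the rapamycin IP (-0.06), for CCNK (0.17), CDK9 (-0.67) and MNAT1 (0.22) between IP and total RNA, and for CDK9 in the interaction with rapamycin (0.65). The cause was not tested. With 1 library left out, values crossed 0 for CCNT2 (-0.21 to 0.10) and CDK7 (-0.19 to 0.01) in the IP after CDK12 siRNA, CCNT2 (-0.00 to 0.22) and CDK13 (-0.03 to 0.28) in the rapamycin IP, CDK7 (-0.01 to 0.28) in total RNA with rapamycin and CDK9 (-0.18 to 0.01) in the interaction with rapamycin, none of which had passed.

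Counts of genes past the threshold, in the order total RNA after CDK12 siRNA, total RNA with rapamycin, IP with rapamycin, IP against total RNA, and the interactions with CDK12 siRNA and with rapamycin, were 8325, 6503, 11151, 13725, 7006 and 9673, and with genes of at least 1 FPKM, which tests fewer genes, 4500, 3892, 7196, 8027, 4023 and 6145. The count of 3924 in the IP after CDK12 siRNA became 678 with the compared groups alone and 1593 with library weights. With 1 library left out, the count in total RNA with rapamycin ran from 3053 (without total rapamycin replicate 1) to 7539, with 4103 without total control replicate 2 and 4134 without total rapamycin replicate 2. Without scaling the median change of all genes moved from 0.05 to -0.11 in total RNA after CDK12 siRNA, from -0.03 to 0.15 in total RNA with rapamycin, from 0.07 to 0.21 in the rapamycin IP and from -0.07 to 0.22 in the interaction with CDK12 siRNA. Deviations of libraries with the same replicate number correlated at -0.08 to 0.25 over 26 pairs, 5 of them over 0.1. In groups of 2 the deviations mirror each other, so some pairs repeat the same value. The highest, 0.25, was that of total RNA and the IP with rapamycin. Whether those libraries share a culture is not stated, and this check cannot tell. The numbers were not taken as pairing. With the replicate number as a block the counts were 8334, 6508, 10939, 13520, 6804 and 9566 in the same order and 3542 in the IP after CDK12 siRNA; the block ended the call of CCNK between IP and total RNA (-0.35) and CCNT2 passed in the interaction with CDK12 siRNA (-0.52). With a pseudocount of 1, 25 of the 45 called values shrank by over 1.5 times, and with 0.5, 7 did. With a pseudocount of 1, CDK12 moved from -0.94 to -0.56, CDK7 from 0.90 to 0.53 and MNAT1 from 0.48 to 0.26 in total RNA after CDK12 siRNA, and POLR2A from -0.71 to -0.28 in the IP; all 4 still passed. Among genes of at least 1 FPKM the median of IP against total RNA moved from -0.12 to 0.43. CCNK (154 to 527 tags per library) and CDK9 (166 to 672) had the lowest tag counts.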
